A study of Mus musculus with 12 samples.

Results

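The *Dlk1*-*Dio3* domain is an imprinted stretch of mouse chromosome 12 that runs from *Dlk1* to *Dio3*. It was read here in whole liver of pups at postnatal day 2 (P2). The members were a list of 45 gene symbols lying between *Dlk1* and *Dio3*: 3 protein-coding genes, 3 long noncoding RNAs and 39 microRNA hairpins. Each was read from the probe set that names it alone, chosen by the highest mean signal over all 12 arrays, whatever the genotype. Of the 45, 41 were measured in this way, out of 19938 genes on the array, and since each had 1 such probe set, the mean signal decided none of them. *Mirg* and *Mir410* share a probe set, *Mir433* shares one with *6430411K18Rik*, and no probe set names *Mir758*.

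The 6 *Ppara*-/- pups lacked PPARα, a fatty acid-sensing nuclear receptor, and the 6 *Ppara*+/+ pups were wild type; each genotype held 3 females and 3 males. All were untreated sucklings from matings of *Ppara*+/- parents, and each gave 1 array. The strain is SV129 in the labels and C57BL/6 in the study's methods. The methods mention 3 litters per genotype, but no label ties a pup to its litter, so the p-values measure only how pups vary and take no account of shared litters. The genotype is that of the whole pup, so an effect through another organ cannot be told apart from an effect within the liver.

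On the paternal chromosome the domain expresses the protein-coding genes *Dlk1*, *Rtl1* and *Dio3*. On the maternal chromosome it expresses a string of noncoding RNAs in the same orientation, *Meg3*, *Rian* and *Mirg*, from which microRNAs and small nucleolar RNAs are cut. DLK1 is a transmembrane protein of the Notch ligand family that marks hepatoblasts, RTL1 is a retrotransposon-derived protein of the placenta, and DIO3 is the deiodinase that inactivates thyroid hormone. The domain is active in the fetus and is turned down in most tissues after birth.

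The maternal microRNAs lie in 2 groups, 1 around *Rtl1* and *Rian* and 1 from *Mir379* to *Mir410*. The mature sequences of the 5 hairpins with the largest genotype differences are given here to show which microRNAs these hairpins encode. The array labels RNA along whole transcripts, so a hairpin probe set reads any RNA that contains the hairpin, uncut host transcripts included, and not the mature microRNA as such. They come from RefSeq (GRCm38.p6, all on the plus strand of chromosome 12), and the seed, bases 2 to 8, which sets the choice of target, is in capitals.
miR-379-5p, chr12:109709065-109709085: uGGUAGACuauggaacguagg
miR-379-3p, chr12:109709102-109709123: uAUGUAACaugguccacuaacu
miR-380-5p, chr12:109711806-109711827: aUGGUUGAccauagaacaugcg
miR-380-3p, chr12:109711842-109711863: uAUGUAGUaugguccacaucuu
miR-382-5p, chr12:109733781-109733802: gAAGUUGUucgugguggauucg
miR-382-3p, chr12:109733819-109733840: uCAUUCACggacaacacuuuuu
miR-377-5p, chr12:109740515-109740536: aGAGGUUGcccuuggugaauuc
miR-377-3p, chr12:109740553-109740574: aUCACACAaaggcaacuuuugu
miR-369-5p, chr12:109743431-109743452: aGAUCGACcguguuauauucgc
miR-369-3p, chr12:109743466-109743486: aAUAAUACaugguugaucuuu

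All 39 listed hairpins matched RefSeq and gave 74 mature sequences with 71 distinct seeds, so few members share a seed. Only 3 seeds occurred in more than 1 member. The other partners of these pairs are shown next to let the sequences within each pair be compared. *Mir379* rose while *Mir411* did not pass, and *Mir376b* rose while *Mir376c* did not pass.
miR-411-3p, chr12:109710225-109710246: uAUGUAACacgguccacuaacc
miR-376b-5p, chr12:109723471-109723492: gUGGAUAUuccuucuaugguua
miR-376c-5p, chr12:109722733-109722754: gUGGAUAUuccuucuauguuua
miR-494-5p, chr12:109715334-109715355: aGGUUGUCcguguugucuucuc
miR-410-5p, chr12:109743729-109743749: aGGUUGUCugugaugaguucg

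Values are log2 signals, so a difference of 1 is a 2-fold change. The median signal of an array lay between 7.16 and 7.2 and the correlation of any pair of arrays between 0.989 and 0.996. These values do not show what limits precision, and there were few pups. The signal of *Ppara* lay from 10.21 to 10.33 in *Ppara*-/- livers, below its range of 10.98 to 11.27 in *Ppara*+/+ livers, and no source used here says which part of *Ppara* the probe set covers.

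Most of the domain was higher in *Ppara*-/- livers at P2. Of the 41 measured members 26 rose at an adjusted p under 0.05 (limma with sex as a term, adjusted over all 35556 probe sets) and 0 fell. Over all probe sets 1.51% rose and 0.79% fell by the same rule. The estimate was above 0 for 40 members, all but *Dio3*, and the median log2 difference was 0.50, beside -0.01 over all genes. For 25 members the lowest *Ppara*-/- value exceeded the highest *Ppara*+/+ value, which was so for 2.1% of all probe sets. The list was drawn up with earlier results of these arrays known, so these counts describe the domain and are not independent evidence of its direction. In whole liver, a change in the number of cells that express a gene cannot be told apart from a change in RNA per cell.

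**Figure D1:**
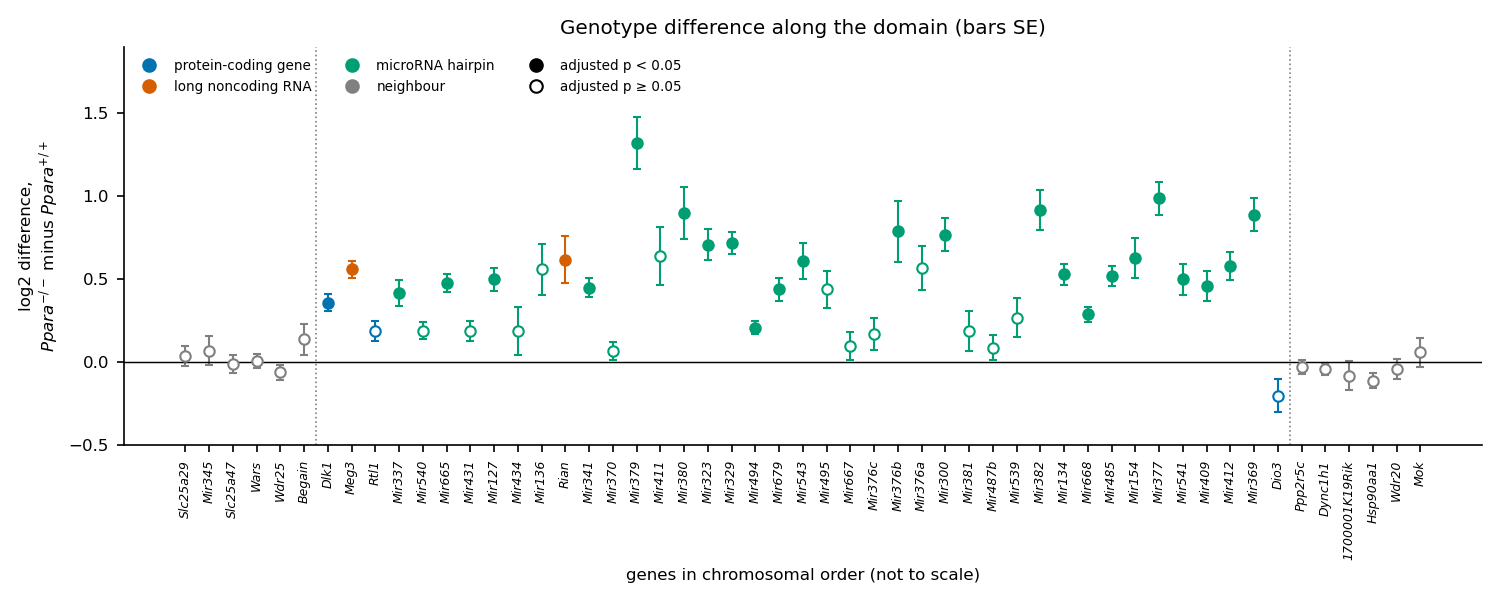
Genotype difference along the domain. The vertical axis is the log2 difference, *Ppara*-/- minus *Ppara*+/+, with its standard error; genes stand in chromosomal order, not to scale, with 6 measured neighbours on each side beyond the dotted lines. Filled points have an adjusted p under 0.05; the filled points lie between 0.21 and 1.32, *Dio3* is at -0.20, and the neighbours lie between -0.11 and 0.14.

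Among the paternally expressed genes, *Dlk1* rose and the other two did not pass. The lowest, median and highest *Dlk1* signals were 11.01, 11.19 and 11.29 in *Ppara*-/- livers, against 10.70, 10.83 and 10.89 in *Ppara*+/+ livers. The genotypes did not overlap, and *Dlk1* was 1.28-fold higher (log2 difference 0.36, SE 0.0516, adjusted p = 0.00297 from limma). *Rtl1*, with means of 6.56 ± 0.11 in *Ppara*-/- and 6.37 ± 0.08 in *Ppara*+/+ livers (SD, n = 6 each), gave a log2 difference of 0.19 (adjusted p = 0.162), and 4 of its 6 *Ppara*-/- values lay above every *Ppara*+/+ value. *Dio3* averaged 5.60 ± 0.19 in *Ppara*-/- and 5.81 ± 0.17 in *Ppara*+/+ livers (SD, n = 6 each), a log2 difference of -0.20 (SE 0.1, adjusted p = 0.378). Its genotypes overlapped, and both lay below 6.53, the 40th percentile of mean signal over all probe sets, where array signals are compressed. *Rtl1*, with a mean of 6.47 over the 12 arrays, lay just below that percentile as well.

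Of the maternally expressed long noncoding RNAs, both that have a probe set of their own, *Meg3* and *Rian*, rose, and so did the probe set that *Mirg* shares with *Mir410*. *Meg3*, whose promoter is methylated on the paternal chromosome, had a lowest, median and highest signal of 11.50, 11.57 and 11.70 in *Ppara*-/- livers and 10.87, 11.03 and 11.18 in *Ppara*+/+ livers. The gap between the genotypes was wider than the spread within either, and the difference was 1.47-fold (log2 0.56, SE 0.0539, adjusted p = 0.000177).

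*Rian*, the host of many small nucleolar RNAs, had signals of 7.88, 8.21 and 8.56 (lowest, median, highest) in *Ppara*-/- livers and 7.41, 7.48 and 7.98 in *Ppara*+/+ livers. It rose 1.54-fold (log2 0.62, SE 0.142, adjusted p = 0.0449), but *Ppara*-/- replicate 11 lay below the highest *Ppara*+/+ value. Its call held in 3 of 12 fits that left out 1 array, those without *Ppara*-/- replicate 11 or *Ppara*+/+ replicates 1 or 7, and without any of the other arrays its adjusted p reached up to 0.114. A further probe set, which reads *Rian* together with the small nucleolar RNA *AF357355*, differed by 0.39 (adjusted p = 0.023) and did not overlap between genotypes; its call held in 5 of 12 such fits, with an adjusted p of up to 0.062 in the others. *Mirg*, the last host transcript, was read only with *Mir410*: this probe set had signals of 8.62, 9.0 and 9.07 in *Ppara*-/- livers and 7.64, 7.80 and 7.93 in *Ppara*+/+ livers. It was 2.18-fold higher (log2 1.12, SE 0.0815, adjusted p = 1.5e-05). The probe sets of several genes were read in addition to the 41 and enter none of their counts.

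**Figure D2:**
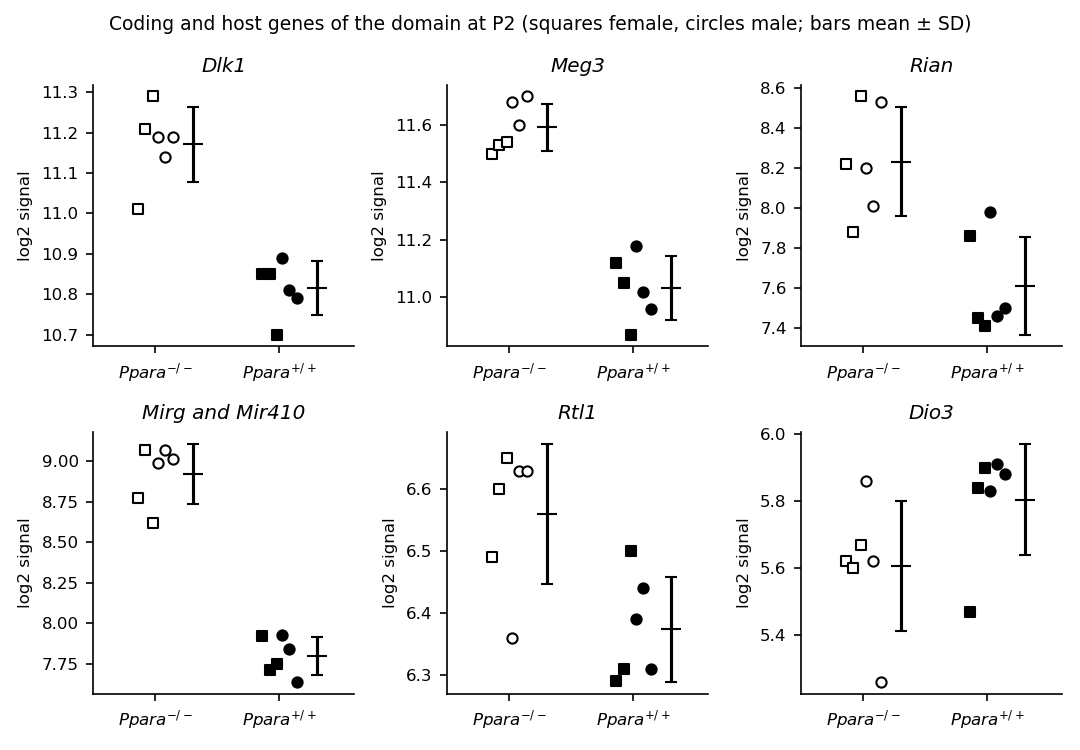
Log2 signals of the coding and host genes in the 12 livers. Each point is 1 pup, open for *Ppara*-/- and filled for *Ppara*+/+, squares for females and circles for males; bars give mean ± SD of 6 pups, and each panel has its own axis. *Dlk1*, *Meg3* and the probe set of *Mirg* and *Mir410* do not overlap between genotypes, while *Rian*, *Rtl1* and *Dio3* do.

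The window of 300 bases around the annotated *Meg3* start is given because *Rian*, the probe set of *Mirg* and *Mir410*, and the hairpins that rose lie downstream of it in the same orientation. It is chr12:109540746-109541045, plus strand (RefSeq, GRCm38.p6), with a TGACGTCA sequence, the palindromic cyclic AMP response element, in capitals.
Meg3: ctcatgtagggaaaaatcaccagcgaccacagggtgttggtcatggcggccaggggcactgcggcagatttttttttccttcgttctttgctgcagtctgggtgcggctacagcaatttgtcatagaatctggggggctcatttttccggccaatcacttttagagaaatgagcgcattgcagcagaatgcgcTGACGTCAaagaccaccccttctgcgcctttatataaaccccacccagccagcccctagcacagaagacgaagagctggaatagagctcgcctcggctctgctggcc
TGACGTCA stands in 1.79% of 32851 promoter windows of this length. AGGTCA, the half-site that nuclear receptors such as PPARα read, was searched on both strands, and no window named here held both motifs; 16.3% of the windows hold it and 0.0396% hold it as a direct repeat with 1 base between. The window shown and those of *Dlk1*, *Rian*, *Mirg* and *Dio3* held no AGGTCA, and the window of a second annotated *Meg3* start held 1. A match is a description of letters and says nothing of binding.

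Hairpins that rose lay along the whole noncoding part of the domain, and the median difference was larger in the distal group. Of 36 measured hairpins 23 rose and 0 fell, with a median log2 difference of 0.50, and all 36 estimates were above 0. In the proximal stretch between *Meg3* and *Rian* 3 of 7 rose (median 0.42), within *Rian* 1 of 2, and in the group from *Mir379* to *Mir410* 19 of 27 (median 0.57). The difference between these stretches was not tested, because neighbouring hairpins share host transcripts and are not replicates.

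In the proximal stretch, whose hairpins lie around and opposite to *Rtl1*, the members that rose were *Mir127* (log2 difference 0.50, adjusted p = 0.00232), *Mir665* (0.48, adjusted p = 0.00058) and *Mir337* (0.42, adjusted p = 0.0141). *Mir127*, whose microRNA is complementary to the *Rtl1* transcript, had a lowest, median and highest signal of 7.44, 7.52 and 7.78 in *Ppara*-/- livers, against 6.98, 7.06 and 7.21 in *Ppara*+/+ livers. *Mir431*, *Mir434* and *Mir540* each differed by 0.19 and did not pass (adjusted p = 0.136, 0.607 and 0.0893). The genotypes did not overlap for *Mir540* and overlapped for *Mir431* and *Mir434*. *Mir136* differed by 0.56 (adjusted p = 0.0969); *Ppara*-/- replicate 11 lay apart from the other 5, and without it the adjusted p was 0.00639. The probe set that reads *Mir433* with *6430411K18Rik* was 1.42-fold higher (log2 0.51, adjusted p = 0.00577). Within *Rian*, *Mir341* rose by 0.45 (adjusted p = 0.00111), while *Mir370* differed by 0.07 (adjusted p = 0.617).

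The largest rise in the domain was that of *Mir379*, the hairpin at the head of the distal group. Its lowest, median and highest signals were 5.76, 5.93 and 6.51 in *Ppara*-/- livers, against 4.34, 4.59 and 5.20 in *Ppara*+/+ livers, and the genotypes did not overlap. It was 2.49-fold higher (log2 1.32, SE 0.156, adjusted p = 0.000777), although its signals lay below the 40th percentile in both genotypes.

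*Mir377* rose by 0.99 (SE 0.0995, adjusted p = 0.000232), with signals of 8.42, 8.72 and 9.05 in *Ppara*-/- livers and 7.49, 7.74 and 7.96 in *Ppara*+/+ livers. *Mir382* rose by 0.92 (SE 0.12, adjusted p = 0.00149), with 8.45, 8.61 and 9.05 in *Ppara*-/- livers and 7.35, 7.76 and 8.11 in *Ppara*+/+ livers. Neither pair of genotypes overlapped, and both hairpins lay well above the 40th percentile. *Mir380* rose by 0.90 (SE 0.157, adjusted p = 0.00958), with 6.59, 7.12 and 7.67 in *Ppara*-/- livers and 5.70, 6.23 and 6.57 in *Ppara*+/+ livers, so that its genotypes were close to touching. *Mir369*, near the distal end, rose by 0.89 (SE 0.098, adjusted p = 0.000479), with 7.22, 7.51 and 7.59 in *Ppara*-/- livers and 6.12, 6.66 and 6.77 in *Ppara*+/+ livers.

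*Mir329* had the smallest adjusted p of the 41 (0.000162), with a difference of 0.72 and an SE of 0.0681; its signals were 7.97, 8.19 and 8.41 in *Ppara*-/- livers and 7.31, 7.48 and 7.59 in *Ppara*+/+ livers. *Mir300* (0.77) and *Mir323* (0.71) rose to a like degree. *Mir134*, best known in neurons, where it restrains the growth of dendritic spines, rose by 0.53 (adjusted p = 0.00106) with 9.30, 9.42 and 9.63 in *Ppara*-/- livers and 8.78, 8.94 and 9.03 in *Ppara*+/+ livers. The other hairpins of the group that rose and kept their call without any 1 array were *Mir543* (0.61), *Mir412* (0.58), *Mir485* (0.52), *Mir541* (0.50), *Mir679* (0.44) and *Mir668* (0.29). All 6 were separated between genotypes.

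A further 4 hairpins of the group rose with calls that depended on single arrays. *Mir376b* (0.79, adjusted p = 0.047) passed only in the fits without *Ppara*-/- replicate 10 or *Ppara*+/+ replicate 7 and otherwise reached up to 0.115; its genotypes overlapped. *Mir154* (0.63, adjusted p = 0.0189) reached up to 0.0527 without *Ppara*-/- replicate 12 or *Ppara*+/+ replicates 1 or 8. *Mir409* (0.46, adjusted p = 0.0191) reached up to 0.0536 without *Ppara*-/- replicates 4 or 11 or *Ppara*+/+ replicates 1 or 8. *Mir494* (0.21, adjusted p = 0.0191) reached up to 0.0551 without *Ppara*-/- replicates 4, 5 or 11 or *Ppara*+/+ replicates 2 or 3. All 4 kept their direction in each of these fits.

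**Figure D3:**
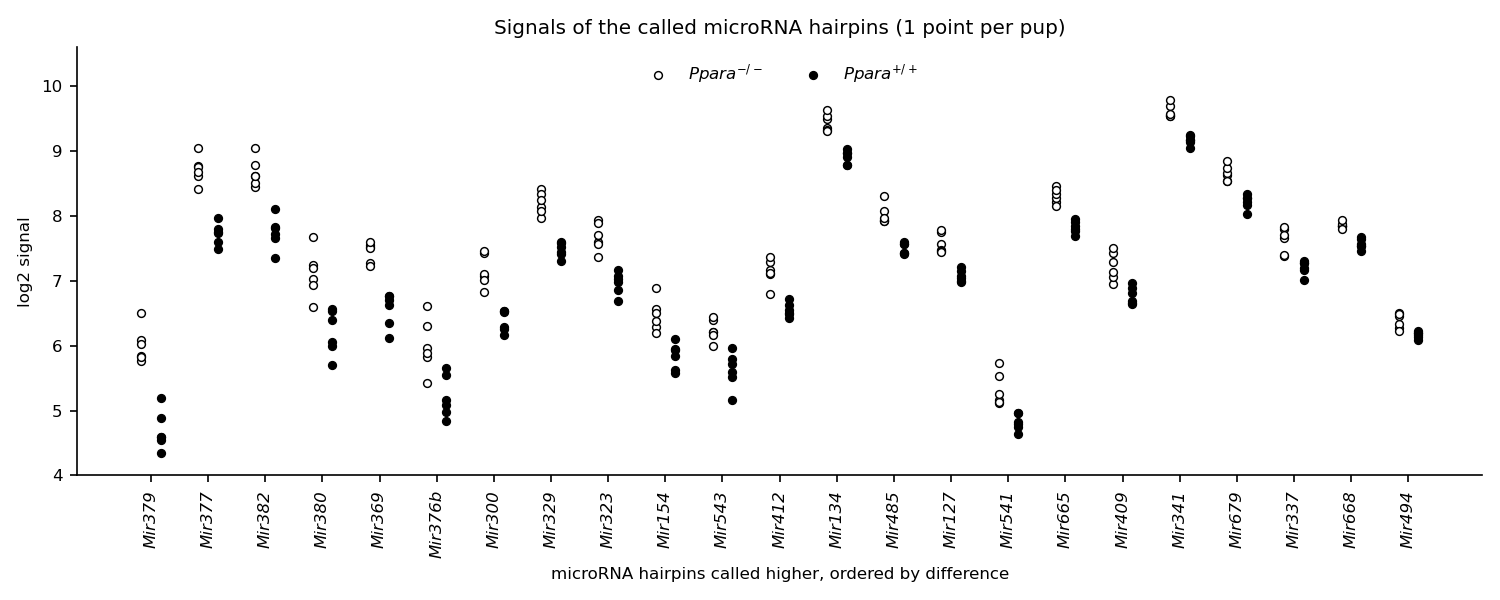
Log2 signals of the 23 microRNA hairpins with an adjusted p under 0.05, ordered by their genotype difference from *Mir379* (1.32) to *Mir494* (0.21). Each point is 1 pup, open for *Ppara*-/- and filled for *Ppara*+/+, 6 per genotype. The genotypes overlap for *Mir376b* and *Mir409* and are separated for the others.

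The remaining 8 hairpins of the distal group did not pass. *Mir411* differed by 0.64 (adjusted p = 0.0905), with means of 6.53 ± 0.29 in *Ppara*-/- and 5.88 ± 0.43 in *Ppara*+/+ livers (SD, n = 6 each), and its adjusted p was 0.0105 without *Ppara*+/+ replicate 7. *Mir376a* differed by 0.57 (adjusted p = 0.0542) with genotypes that did not overlap, and passed without *Ppara*-/- replicate 6 or *Ppara*+/+ replicate 7, with an adjusted p as low as 0.0185. *Mir495* differed by 0.44 (adjusted p = 0.0716) and passed without *Ppara*-/- replicate 5, at 0.048. The other 5, *Mir539* (0.27), *Mir381* (0.19), *Mir376c* (0.17), *Mir667* (0.10) and *Mir487b* (0.09), had adjusted p values from 0.308 to 0.646 and overlapped between genotypes. Unlike the dim members among them, *Mir667* had a signal far above the 40th percentile, 9.26 ± 0.16 in *Ppara*-/- and 9.17 ± 0.14 in *Ppara*+/+ livers (SD, n = 6 each).

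Whether a member passed went with its signal. Of the 23 members with a mean above 6.53, 20 rose, and of the 18 below it, 6 rose. None of the 7 members with a mean under 5 passed, although all 7 estimates were above 0 (median 0.27). Across the 36 hairpins the GC content of the hairpin, from 29.1% to 62.0%, went with the mean signal (Spearman's rho 0.69) and less with the genotype difference (rho -0.30), and the mean signal and the difference had a rho of 0.07. These are descriptions across hairpins that share arrays and host transcripts. Hairpins that rose had a median signal of 7.32 and those that did not pass one of 4.95, while their median GC contents were 45.6% and 45.1%. A missing call in a dim hairpin is therefore no evidence that it did not change.

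Genes around the members were read to see where the differences ended. Of 6 measured neighbours before *Dlk1* (*Slc25a29*, *Mir345*, *Slc25a47*, *Wars*, *Wdr25* and *Begain*) none passed, with log2 differences from -0.06 to 0.14. Of 6 after *Dio3* (*Ppp2r5c*, *Dync1h1*, *1700001K19Rik*, *Hsp90aa1*, *Wdr20* and *Mok*) none passed either, from -0.11 to 0.06. Inside the domain 7 further genes that are not members were measured, and 2 of them rose. *DQ267102*, a small nucleolar RNA gene, rose by 0.43 (adjusted p = 0.0159), with signals from 11.36 to 11.71 in *Ppara*-/- livers and from 10.91 to 11.25 in *Ppara*+/+ livers. *Mir496a* rose by 0.39 (adjusted p = 0.0291), a call that held in 4 of 12 fits, those without *Ppara*-/- replicates 10 or 12 or *Ppara*+/+ replicates 7 or 9, and otherwise reached up to 0.0757. *DQ267101* (0.49), *AF357341* (0.37), *Mir299a* (0.07), *Mir673* (-0.01) and *Mir666* (-0.03) did not pass. Elsewhere in the genome 260 microRNA genes were measured, of which 0 rose and 1 fell, *Mir505* (-0.23, adjusted p = 0.0289), named here after its value was seen. Their median log2 difference was -0.03. Of these 260, 175 had a mean signal below 6.53, against 16 of the 36 measured hairpins of the domain. A larger share of them was thus dim, where a missing call is no evidence of no change. Of the 16 dim hairpins of the domain 6 rose, and of the 260 none rose above that level or below it.

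No member passed for sex. For male minus female 0 of 41 passed (limma), 4 had an unadjusted p under 0.05, *Mir380*, *Mir494*, *Mir541* and *Mir369*, and over all probe sets 0.0619% passed. An unadjusted p under 0.05 for sex was found for 1453 of the 35556 probe sets. Within males 18 members rose, with a median genotype difference of 0.58, and within females 5 rose, *Meg3*, *Mir665*, *Mir329*, *Mir377* and *Mir369*, with a median of 0.38. Over all probe sets 0.321% rose within males and 0.231% within females. The estimate was larger in males for 33 of 41 members, but the interaction of genotype and sex passed for none of them, as for 0% of all probe sets. At an unadjusted p under 0.05 the interaction gave 1 member, *Mir337* (0.58 in males and 0.27 in females, unadjusted p = 0.0419 from limma), beside 1004 of the 35556 probe sets. The shared probe set of *Mir433* and *6430411K18Rik*, which is not among the 41, differed by 0.73 in males and 0.29 in females. Its interaction had a smaller unadjusted p (0.00144 from limma) and did not pass after adjustment either. With 3 pups per genotype and sex, a difference between the sexes is not shown, and equal effects are not shown either.

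**Figure D4:**
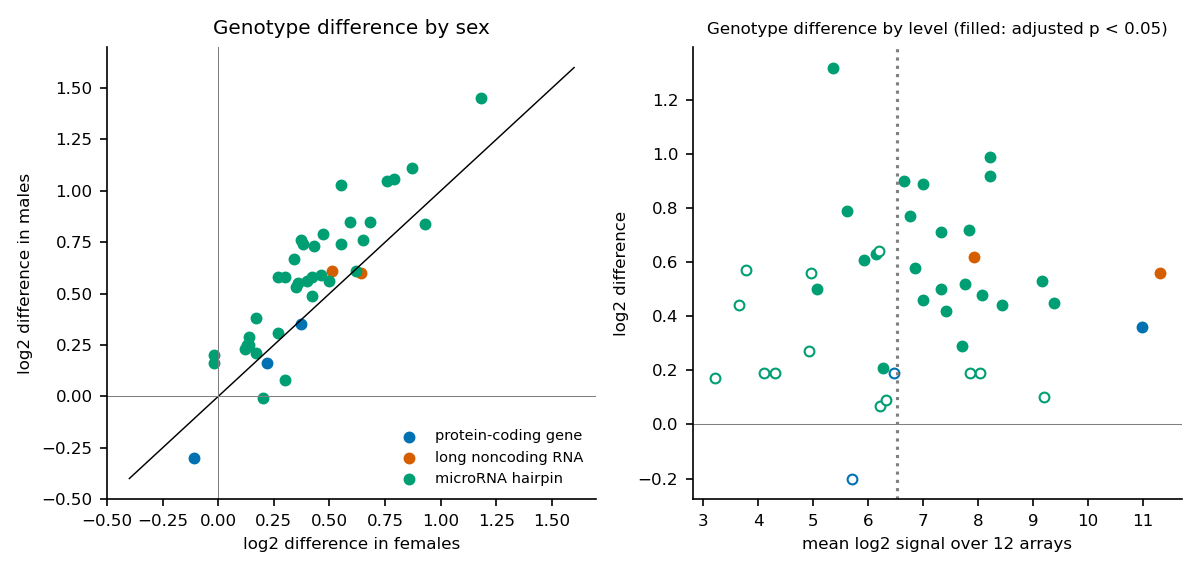
Left, log2 genotype difference in males (vertical axis) against that in females (horizontal axis) for the 41 members, with the line of equal differences; most points lie above the line. Right, log2 genotype difference against the mean log2 signal over 12 arrays, filled at an adjusted p under 0.05, with the 40th percentile of all probe sets (6.53) as a dotted line; 6 of the 18 members left of it and 20 of the 23 right of it passed.

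The same arrays were often at the ends of the range. *Ppara*-/- replicate 6, a male, had the highest *Ppara*-/- signal in 25 of 41 members, and *Ppara*-/- replicate 10, a female, the lowest in 23. Over the 26 members that rose, the mean signals of these arrays were 8.08 and 7.64, and those of the other 4 *Ppara*-/- arrays lay from 7.78 to 7.91. The *Ppara*+/+ arrays lay from 7.10 to 7.35, and replicate 1, a male, was highest in 15 of 41 members. *Ppara*-/- replicates 6 and 10, at opposite ends for the domain, were also the arrays with the highest sums of 15 pancreatic exocrine markers (linear signals of 9323 and 6368, against 1506 to 2418 in the other *Ppara*-/- and 1392 to 3897 in the *Ppara*+/+ arrays). Without both arrays, a setting chosen after the data were seen, 21 of the 26 kept their call, the median difference was 0.46 and 40 of 41 estimates were above 0. The calls lost were those of *Rian*, *Mir376b*, *Mir154*, *Mir494* and *Mir543*.

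Within *Ppara*+/+ livers the signals of *Meg3* and *Dlk1*, which come from opposite parental chromosomes, ran in parallel over the 6 pups (Pearson's r = 0.97, Spearman's rho = 1.0, both exact permutation p = 0.00278, adjusted over 8 comparisons 0.0222). Without the 2 pups farthest from the median of *Meg3*, r was 0.92. After quantile normalization r was 0.96 and the comparison no longer passed (exact permutation test, adjusted p = 0.0556). Within *Ppara*-/- livers r was 0.28 and rho 0.14 (exact permutation p = 0.683 and 0.803, adjusted 0.683 and 0.803), and without 2 pups r was 0.31. The difference between the genotypes was not tested. *Ppara*+/+ replicate 9 was the lowest for both genes, and also for some genes outside the domain, such as *Cdh5* and *Eng*, though not for others. Whether the parallel is particular to this pair was not tested either. *Meg3* with *Rian* in *Ppara*+/+ livers gave r = 0.86 and rho = 0.77 (exact permutation p = 0.0222 and 0.103, adjusted 0.0888 and 0.272), and r = 0.78 without 2 pups. *Rian* with the probe set of *Mirg* and *Mir410* gave r = -0.63 and rho = -0.77 in *Ppara*-/- livers (r = -0.12 without 2 pups) and r = 0.78 and rho = 0.60 in *Ppara*+/+ livers (r = -0.56 without 2 pups). *Meg3* with that probe set gave r = 0.46 and rho = 0.26 in *Ppara*-/- and r = 0.70 and rho = 0.71 in *Ppara*+/+ livers, and *Meg3* with *Rian* gave r = 0.32 and rho = 0.20 in *Ppara*-/- livers (r = -0.17 without 2 pups). None of these 5 passed, with adjusted p values from 0.24 to 0.803 (exact permutation test).

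Other imprinted genes, genes that keep imprints and chromatin marks, and genes of microRNA processing were read from lists. Beside these lists, 1.99% of all genes rose and 1.12% fell by the same rule. Of 25 other imprinted genes of growth 6 rose and 0 fell, with a median of 0.14, and 4 to 7 rose when 1 array was left out. *Phlda2*, a placental growth suppressor, rose by 0.78 (10.06 ± 0.13 in *Ppara*-/- and 9.28 ± 0.13 in *Ppara*+/+ livers, SD, n = 6 each, adjusted p = 0.000168), *Zim1* by 0.49 (adjusted p = 0.00076) and *Peg3*, a zinc finger protein, by 0.32 (adjusted p = 0.000483). Of 21 genes that keep imprints and chromatin marks 1 rose, *Dnmt3b*, a de novo DNA methyltransferase, by 0.23 (8.14 ± 0.02 in *Ppara*-/- and 7.91 ± 0.07 in *Ppara*+/+ livers, SD, n = 6 each, adjusted p = 0.00768), and the median was 0.02. Of 17 genes of microRNA processing, among them *Drosha* (-0.07) and *Dicer1* (0.01), none passed and the median was -0.01.

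Around the coding members, 1 of 22 Notch genes rose, *Maml3*, a coactivator of Notch (0.18, adjusted p = 0.0484), whose call held only without *Ppara*-/- replicate 12, with an adjusted p of up to 0.113 without another array. Of 16 genes of thyroid hormone activation, transport and response 3 fell and 0 rose, with a median of -0.04. They were *Serpina7*, which carries thyroxine in blood (log2 difference -0.69, adjusted p = 0.000848), *Dio1*, the deiodinase of liver and kidney (-0.61, adjusted p = 0.0321), and *Me1*, the malic enzyme that thyroid hormone induces (-0.32, adjusted p = 0.0356). *Dio1* averaged 6.80 ± 0.16 in *Ppara*-/- and 7.41 ± 0.29 in *Ppara*+/+ livers (SD, n = 6 each). The calls of *Dio1* and *Me1* each held in 3 of 12 fits that left out 1 array, *Dio1* without *Ppara*-/- replicate 11 or *Ppara*+/+ replicates 7 or 8 and *Me1* without *Ppara*-/- replicate 12 or *Ppara*+/+ replicates 2 or 7, and reached up to 0.0833 and 0.0902 in the others.

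Among the lists of cell markers, only that of hepatoblasts held genes that passed with all 12 arrays. Over all genes 1.99% rose and 1.12% fell. Of 11 hepatoblast markers 3 rose, *Gpc3*, a glypican of fetal liver (0.26, adjusted p = 0.00274), *Igf2bp1* (0.33, adjusted p = 0.0314) and *Igf2bp3* (0.20, adjusted p = 0.0375), both binding proteins of fetal mRNAs, and 0 fell (median 0.08). The summed linear signal of the 11 markers ran from 34165 to 36086 in *Ppara*-/- livers and from 32147 to 34048 in *Ppara*+/+ livers, without overlap. A linear sum weighs the brightest markers most. The mean of their log2 signals ran from 9.33 to 9.55 in *Ppara*-/- livers and from 9.27 to 9.35 in *Ppara*+/+ livers, with overlap. *Igf2bp1* passed in 5 of 12 fits, those without *Ppara*-/- replicates 5 or 10 or *Ppara*+/+ replicates 2, 7 or 8, and *Igf2bp3* only without *Ppara*+/+ replicate 7; the others reached up to 0.0773 and 0.0995. None of 10 hepatocyte markers passed (median 0.02; sums 95736 to 97843 in *Ppara*-/- and 93337 to 98508 in *Ppara*+/+ livers). None of 15 stellate and mesenchymal (median 0.10), 13 endothelial (0.14), 13 Kupffer cell (0.19), 11 erythroid (-0.19) or 15 pancreatic exocrine markers (0.52) passed. Without *Ppara*+/+ replicate 7, however, 5 Kupffer cell markers (*Clec4f*, *Vsig4*, *Adgre1*, *C1qb* and *Csf1r*), 3 endothelial (*Kdr*, *Cdh5* and *Eng*) and 1 stellate marker (*Lrat*) rose and 3 erythroid markers (*Tfrc*, *Sptb* and *Ermap*) fell, with adjusted p values between 0.00559 and 0.0442, while 28 of the 41 members of the domain rose. Without *Ppara*-/- replicate 12 the endothelial marker *Emcn* rose (adjusted p = 0.0486). These genes were named after their values were seen. The part of hepatoblasts, Kupffer cells or other cells in the rise of the domain was not tested.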

How the data were processed

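Whole liver RNA of 12 pups was labelled along whole transcripts and hybridised to Affymetrix mouse gene arrays, 1 per pup. The authors summarised and normalized the arrays with RMA (version not named in the sources used here) and deposited log2 signals, 1 per probe set and array, which were used unchanged. RMA compresses differences of dim probe sets. Of the probe sets 21789 name 1 gene, 1621 several and 12146 none here; 99.6% of the first matched a RefSeq gene table, and 0 changed symbol. Each probe set was fitted with limma 3.58.1 in R 4.3.3 (lmFit and eBayes, genotype and sex as terms, 9 residual and 2.49 prior degrees of freedom), adjusted by Benjamini-Hochberg over all 35556 and called at an adjusted p under 0.05. Within-sex and interaction contrasts came from a fit of 4 groups. No source used here names the genome build behind the array annotation, so the RefSeq table served for gene order only.

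Named were all measured members, other genes inside the domain, 6 neighbours on each side, up to 3 called genes per list and direction, and *Ppara*. Members, lists and tests were chosen with earlier results of these data known. *Mirg* was planned as a gene of its own and was read from its shared probe set. Alternatives were an exact Mann-Whitney test, a 1.3-fold minimum, array weights, a robust variance trend, quantile normalization, median centring, no sex term, 4 groups, single-gene probe sets, no dim probe sets, averaging the probe sets of a gene and leaving out each array. Probe sets shared with genes outside the list, and leaving out *Ppara*-/- replicates 6 and 10 together, were added after seeing the data. The calculation was tested on simulated data.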

Additional observations from a re-analysis of the deposited data

Results flagged for a closer look

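In 6 of 82 groups of 6 values (41 members in each genotype) the highest or lowest array stood apart from the other 5 by more of the group's range than Dixon's limit allows; chance gives about 1 in 20. *Mir136* in *Ppara*-/- replicate 11 was 4.54, against 5.20 to 5.52 in the others. *Mir667* in *Ppara*-/- replicate 6 was 8.95, against 9.23 to 9.37, and *Mir376c* in the same replicate was 3.78, against 3.16 to 3.24. *Mir381* in *Ppara*+/+ replicate 1 was 4.52, against 4.07 to 4.21. *Mir487b* in *Ppara*+/+ replicate 2 was 6.10, against 6.27 to 6.36. *Dio3* in *Ppara*+/+ replicate 7 was 5.47, against 5.83 to 5.91. None of these 6 members had passed the test between genotypes.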

How the results depend on the processing

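The number of members that rose, 26, ran from 22 to 28 when 1 array was left out and from 21 to 30 under the other limma settings, with 0 lower in each; 23 were left with a 1.3-fold minimum and 21 without *Ppara*-/- replicates 6 and 10. By an exact Mann-Whitney test with adjustment over every probe set 0 members passed, with 34 at an unadjusted p under 0.05 and a smallest adjusted p of 0.0691. That is the adjusted p of complete separation, 6 pups against 6, so no probe set on the array could pass by this test. Leaving out dim probe sets kept 23 members, of which 21 rose. Under quantile normalization 0 Notch genes rose, and *Meg3* with *Dlk1* in *Ppara*+/+ livers gave r = 0.96 and no longer passed. Without 1 array, 0 to 1 Notch genes rose and 1 to 3 thyroid genes fell. Over all 41 members, called or not, 385 values under another setting stayed on their side of the threshold, 11 gained and 37 lost a call; without 1 array 456 stayed, 5 gained and 31 lost one, and 0 changed direction past the threshold. Signal limits the dim members, and the number of pups limits the sexes. No analysis paired by litter was possible, because no label ties a pup to its litter.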
